A study of Danio rerio with 2 samples.

Results

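The mitochondrial ribosomal protein genes were all rows of the comparison of rraga mutant with wild-type zebrafish cells whose name begins with mrpl or mrps and whose level is above 0. There were 76 of them among 34326 genes, 47 named mrpl for the large subunit and 29 named mrps for the small subunit, and 3 of the names are written in capitals in the authors' deposited table (MRPL49, MRPL55 and MRPS12). The RNA came from larvae of the TL (Tupfel long fin) strain at 5 days post fertilization. In both groups the cells had been sorted for GFP driven by Cldnk, a claudin promoter active in oligodendrocytes, the myelin-forming glia of the brain and spinal cord. The comparison is of wild-type with rraga mutant cells, and the labels give no allele name for the mutation. Each genotype has 1 record, which merges 2 biological replicates per the labels, so no value per replicate was at hand. The authors' deposited table gives for each gene a log2 fold of mutant over control, p-values, and the higher of the genotype means in an unnamed normalized unit, called the level here. The level is not labelled with the genotype it comes from, the lower mean is not given, and the sequencing depth is unknown. The direction of every fold rests on the title of the table.

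Mitochondria keep a ribosome of their own, related to that of bacteria, which translates the few messenger RNAs of the mitochondrial genome into membrane subunits of the respiratory chain and of ATP synthase. All of its proteins are encoded in the nucleus, made in the cytosol and imported, whereas its RNA comes from the mitochondrial genome. Most have a bacterial counterpart (named uL, bL, uS or bS for universal or bacterial, large or small), and the others (mL or mS) are found only in mitochondria. rraga encodes RagA, a GTPase at the lysosome that passes amino acid signals to the kinase complex mTORC1 and to the transcription factor TFEB. In mammalian cells mTORC1 promotes the translation of nuclear transcripts for mitochondrial ribosomal proteins, a step that sequencing of total RNA does not measure.

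None of the 76 mitochondrial ribosomal protein genes differed between mutant and wild-type cells by the authors' test. With 0 of 76 at an FDR adjusted p under 0.05, the share among all 25757 genes with a p was 0.221%, a share that comes to 0.17 genes in a group of 76. The smallest unadjusted p of a member was 0.228, and 0 of 76 were under 0.05, against 9.66% of all genes with a p. The log2 folds ran from -0.25 to 0.72, with a median of 0.18 and an SD across genes of 0.21. Of the 76, 60 had a positive fold and 16 a negative one. The positive share was 78.95%, against 62.33% of genes of level 10 or more and 50.98% of all genes with a fold. Genes of level 10 or more (5792) themselves centred on 0.15, and relative to it 45 members lay above and 31 below. The mitochondrial ribosomal genes therefore sat near the middle of the genes of level 10 or more, in a narrow band.

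**Figure D1:**
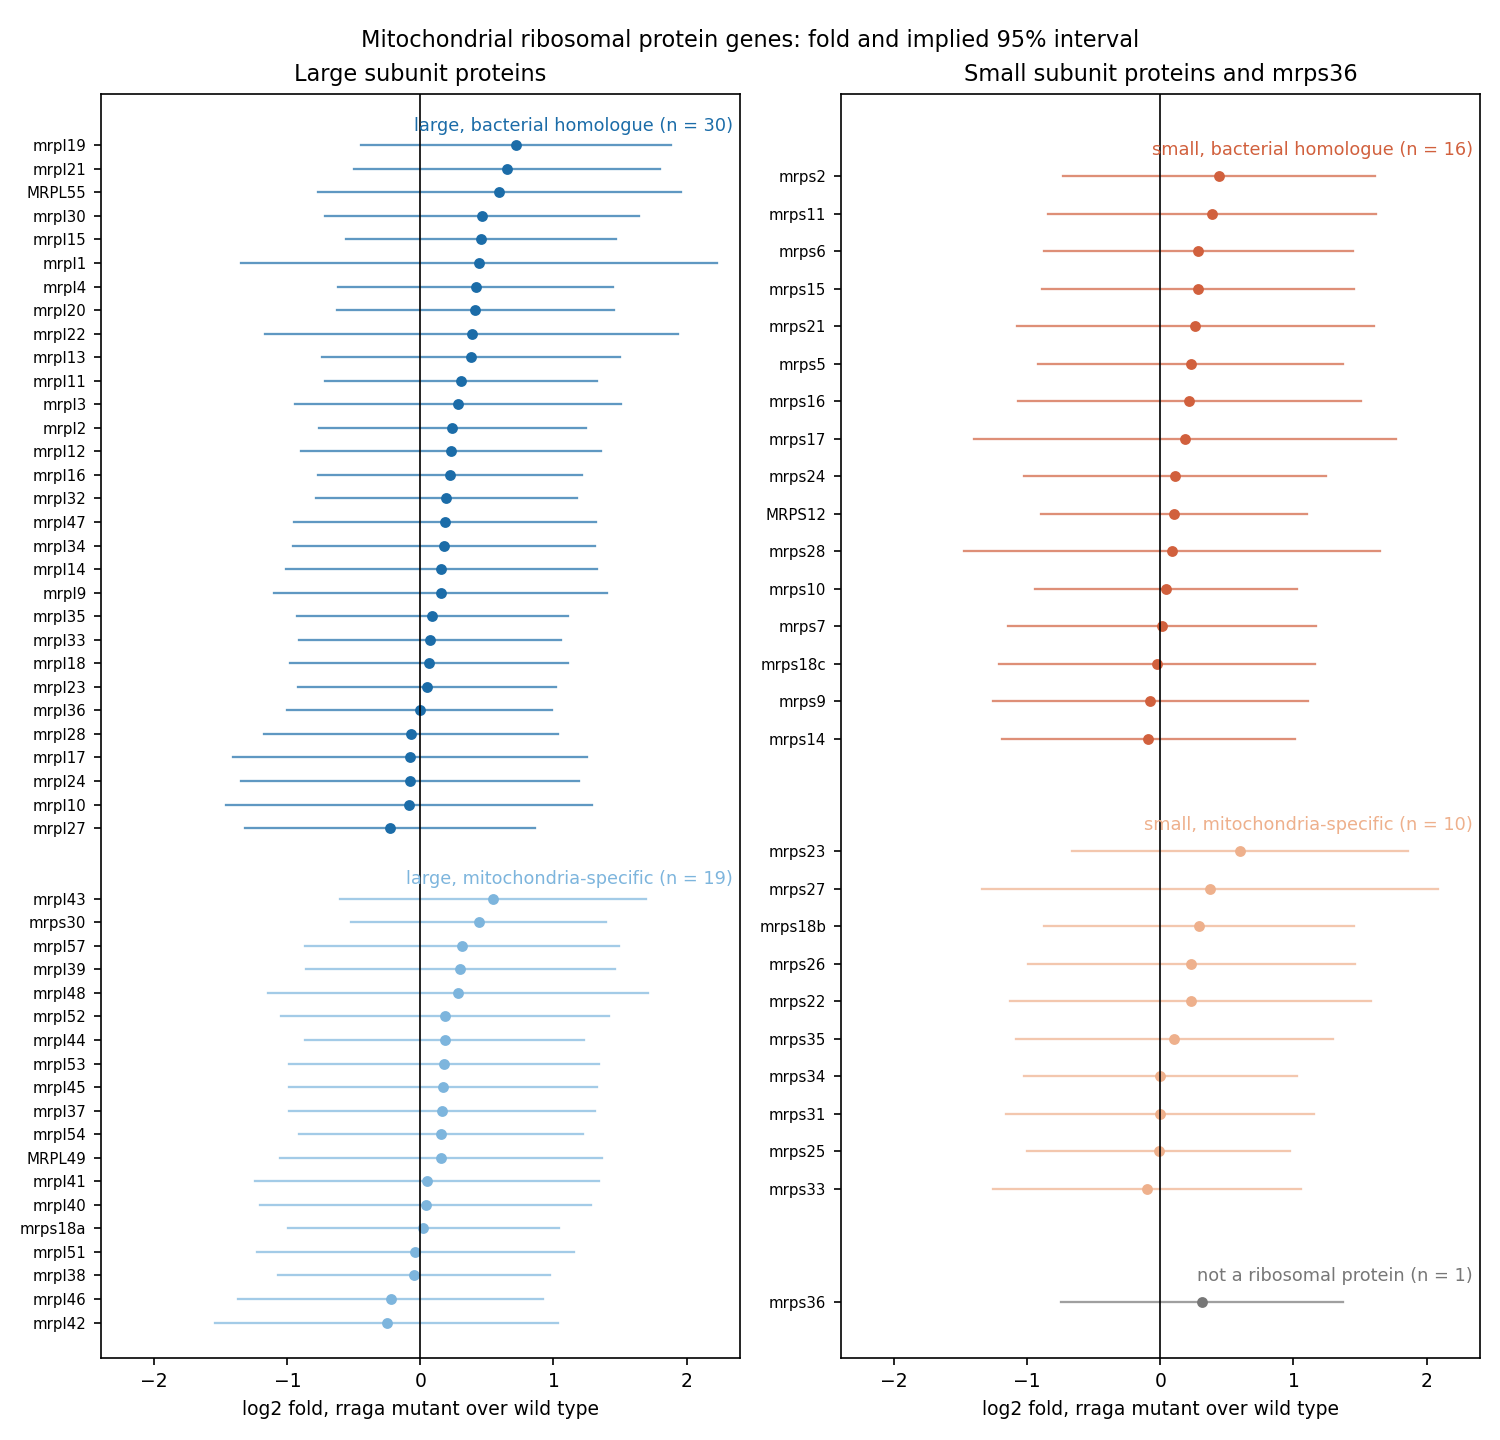
Log2 fold of mutant over wild type for each of the 76 genes (points), placed by the subunit that holds the protein and by whether it has a bacterial counterpart; lines are 95% intervals implied by the authors' fold and p, assuming a normal test. All 76 intervals hold 0, and no point lies beyond 0.72 on the log2 scale.

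The precision of each fold was wide next to this band. A standard error was derived from the authors' fold and p, dividing the size of the fold by the deviate that a two-sided normal test needs for that p. It had a median of 0.59 on the log2 scale over the members (0.49 to 0.91), so a 95% interval reached 1.16 to either side of the fold (2.23-fold). A doubling (log2 fold of 1) lay inside the implied 95% interval of 71 members and a fall to 0.5 times (log2 fold of -1) inside that of 33. These 2 counts also depend on where the folds lie. With a median reach of 1.16, a change of about 2-fold in a given gene was mostly not detectable. The absence of calls does not show equal expression. The spread of the folds across members, 0.21, was smaller than the median error of 0.59. Members may vary together and their errors need not be independent, so the share of positive folds carries no test.

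The labelled cell type was checked with markers of oligodendrocytes and of other tissues that the sort could hold. All 14 oligodendrocyte markers had a level above 0, as had 25757 of the 34326 genes, so this alone does not tell the cell type. Their levels ran from 0.49 (olig1) to 5320.9 (mbpa), with a median of 259.7. The median level of all genes with a fold was 1.75. Together the 14 held 2.53% of the summed level. Each gene enters this sum with its higher genotype mean, so the shares mix the genotypes and give the make-up of neither. The 9 liver markers held 10.7% and the 10 exocrine pancreas markers found held 4.19%, with median log2 folds of -0.57 (0 higher, 9 lower) and -0.81 (1 higher, 9 lower). Median levels of these liver and pancreas markers were 732.7 and 1502.6, above the 259.7 of the oligodendrocyte markers. The 7 erythrocyte markers found held 0.42% and all 7 were higher, with a median of 1.73 and 1, the globin gene hbae1.3, past the threshold. By the authors' deposited table hbae1.3 was higher by 2.65 on the log2 scale (FDR adjusted p = 0.0259). The 8 of skeletal muscle held 0.31% and the 8 of neurons 0.30%, with medians of 0.06 and 0.43. No marker was at level 0. The oligodendrocyte markers had a median of -0.70, with 4 higher, 10 lower and 1, mpz, past the threshold. Of all genes with a p, 0.221% passed it. Ribosomal protein genes are active in every nucleated cell type, and in sorted bulk cells a different mix of cells and a different amount of RNA per cell cannot be told apart; the part of these tissues in the folds of the mitochondrial ribosomal genes was not tested. The row that the authors' deposited table names rraga (ENSDARG00000104149) has a log2 fold of 0.44, at level 33.1 (p = 0.477). The reference name table gives RRAGB for that identifier, a name that the RefSeq gene table lists as a synonym of rraga.

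The filter on level left out none of the 76 rows with these names, so every member had a level above 0. The list used to assign the proteins held 2 genes that matched none of these rows, so the 76 need not be the complete set. Their levels ran from 12.4 (mrps22) to 191 (mrps36) in the authors' deposited table, with a median of 56.5, and all 76 were at 10 or more, where 22.5% of all genes with a fold were. The level of each was above that of at least 80.3% of the genes with a fold. The members held 0.81% of the summed level of all genes, against 4.10% for the 78 cytosolic ribosomal protein genes and 2.55% for the 13 protein genes of the mitochondrial genome. These shares too are of a sum of higher genotype means and describe neither genotype alone. Whether the level is scaled to gene length is not given in the sources used here, so the order of levels between genes is not read as an order of transcript number. Across the 76 genes Spearman's rho of the fold was -0.01 with the level and 0.15 with the genomic span. These are descriptions over genes from the same libraries.

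**Figure D2:**
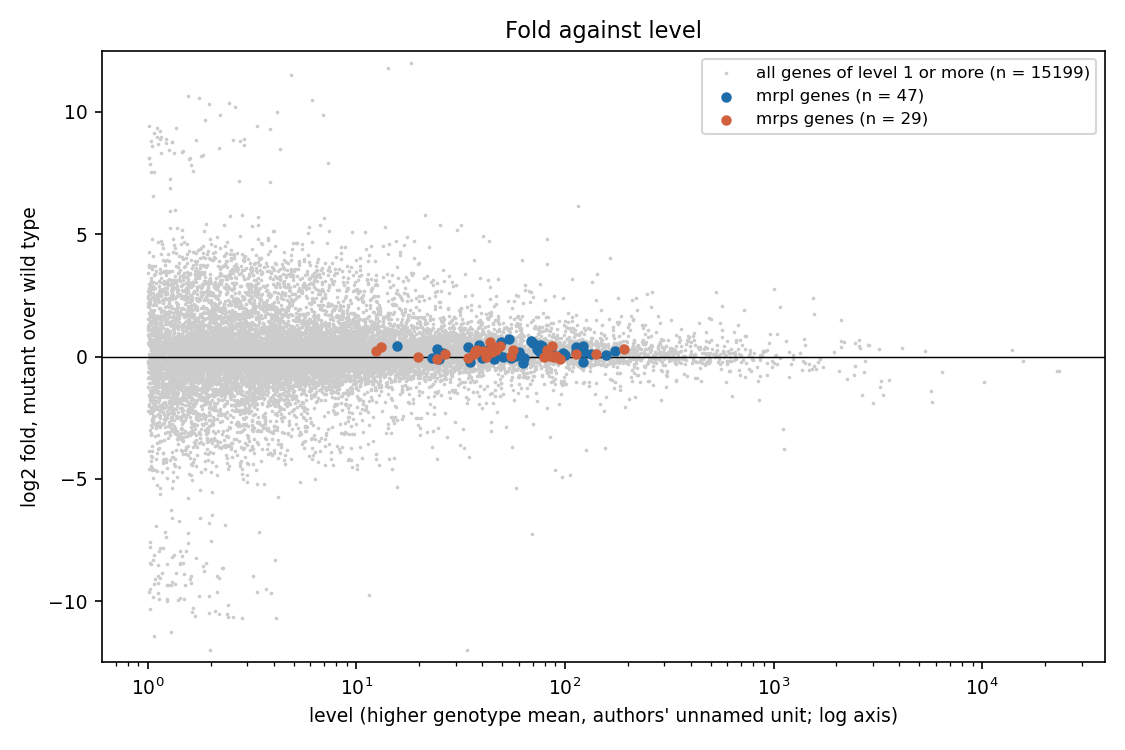
Log2 fold against level (log axis) for all 15199 genes of level 1 or more (grey), with the 47 mrpl and 29 mrps genes coloured. The members form a flat band between -0.25 and 0.72 over levels of 12.4 to 191, within the wider cloud of other genes.

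Large and small subunit genes had nearly the same folds. The 47 mrpl genes had a median log2 fold of 0.18 (interquartile range 0.05 to 0.31), with 37 higher and 10 lower. The 29 mrps genes had a median of 0.18 (0.01 to 0.28), with 23 higher and 6 lower. The difference of the medians, large minus small, was -0.0068 on the log2 scale, and that of the means was 0.02, so even its sign depended on the summary used. No subunit gene of either kind passed the authors' threshold, and with no value per sample at hand the difference could not be tested. The extremes were mixed as well, since 7 mrpl and 3 mrps genes made up the 10 highest folds and again 7 and 3 the 10 lowest.

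The names do not fully match the place of the proteins. The product of mrps30 (mL65) and that of mrps18a (mL66) sit in the large subunit of the mammalian mitochondrial ribosome despite their names. The authors' deposited table gives mrps30 a log2 fold of 0.44 (level 87.1, p = 0.369) and mrps18a one of 0.02 (level 90.8, p = 0.965). The protein of mrps36 is now known as a subunit that ties the alpha-ketoglutarate dehydrogenase complex together, and the reference name for its identifier is kgd4. Its log2 fold was 0.31 (p = 0.566) and its level of 191 the highest of the 76, per the authors' deposited table. With the products of mrps30 and mrps18a counted as large and mrps36 left out, the medians were 0.18 for 49 large and 0.15 for 26 small subunit genes. Moving the members by protein thus left the subunits within 0.1 of each other.

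Genes for proteins with a bacterial counterpart were also close to those for proteins specific to mitochondria. The 46 with a counterpart had a median of 0.19 (37 higher, 9 lower) and the 29 specific ones a median of 0.16 (22 higher, 7 lower). By subunit, the medians were 0.21 for the 30 large subunit proteins with a counterpart, 0.16 for the 19 large specific ones, 0.15 for the 16 small ones with a counterpart and 0.17 for the 10 small specific ones. None of these 4 groups stood apart from the others by as much as 0.1 on the log2 scale.

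Among the large subunit genes, the highest fold of all belonged to mrpl19 (ENSDARG00000011885, chromosome 20, 25541424 to 25546156, GRCz11), which encodes bL19, a protein at the interface of the subunits. In the authors' deposited table its log2 fold was 0.72 (p = 0.228, level 53.8), with an implied 95% interval of -0.45 to 1.89. mrpl21 (chromosome 7, 72154637 to 72161865), for bL21, followed with 0.65 (-0.50 to 1.80; level 68.4, p = 0.266) in the authors' deposited table. MRPL55 (chromosome 8, 15213743 to 15216095), for bL31, had 0.59 at 49.4 (p = 0.395), and mrpl43 (chromosome 12, 33716344 to 33718113), for the mitochondria-specific mL43, had 0.55 at 70.4 (p = 0.352), in the authors' deposited table. These were 4 of the 5 members with a log2 fold of 0.5 or more, and none of them passed the authors' test.

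At the other end, no member had a log2 fold of -0.5 or less. The lowest value was that of mrpl42 (chromosome 4, 1972324 to 1975523), for mL42, at -0.25 in the authors' deposited table, with an implied interval of -1.54 to 1.03 (level 63.2, p = 0.699). mrpl27 (chromosome 12, 21563020 to 21566868), whose bacterial counterpart reaches the peptidyl transferase centre, had -0.23 (level 122, p = 0.680) in the authors' deposited table. mrpl46 (chromosome 7, 14290620 to 14298501), for mL46 of the central protuberance, had -0.22 at 35.1 (p = 0.704) in the authors' deposited table. Each of these intervals also holds the median of the genes of level 10 or more.

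The groups of large subunit proteins, ordered by their place in the ribosome, overlapped in fold. In the stalk that binds translation factors, mrpl12 had a log2 fold of 0.23 (level 174, p = 0.6935) in the authors' deposited table. Its protein in mammals also binds the mitochondrial RNA polymerase. Of the same stalk, mrpl11 had a log2 fold of 0.31 (73.6) and mrpl10 one of -0.09 (24.9) in the authors' deposited table. Around the peptidyl transferase centre, the 4 genes mrpl2, mrpl3, mrpl16 and mrpl27 had a median of 0.23 and ran from -0.23 to 0.28. Along the exit tunnel and its rim, the 7 genes mrpl4, mrpl17, mrpl22, mrpl23, mrpl24, mrpl45 and mrpl47 had a median of 0.17 and ran from -0.08 to 0.41. mrpl45, whose protein faces the inner membrane into which the products are inserted, had 0.17 (level 60.0) in the authors' deposited table. The 6 genes of the central protuberance (mrpl18, mrpl38, mrpl40, mrpl46, mrpl48 and MRPL55) had a median of 0.05 with a range of -0.22 to 0.59.

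The 5 genes for the small proteins bL32 to bL36 lay close together, with log2 folds from -0.0040 (mrpl36) to 0.20 (mrpl32) and a median of 0.09. mrpl33 and mrpl35 are among the large subunit genes of highest level in the authors' deposited table, at 157 and 133, with log2 folds of 0.07 (p = 0.889) and 0.09 (p = 0.865). The implied interval of mrpl33 ran from -0.92 to 1.06. Of the other 10 large subunit genes with a bacterial counterpart, mrpl19, mrpl21, mrpl30, mrpl15, mrpl1, mrpl20, mrpl13, mrpl14, mrpl9 and mrpl28, only mrpl28 was below 0, and their median was 0.43. They are the remainder once the other places were assigned and include the highest folds, so their median describes no structural part of the ribosome. mrpl1, whose protein forms the mobile stalk on the exit side for transfer RNA, had 0.44 (level 15.6) in the authors' deposited table, and its implied error of 0.91 was the largest of all 76 members.

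The other 14 large subunit genes for mitochondria-specific proteins had a median of 0.17 and ran from -0.25 to 0.55. mrpl53, of high level at 123, had a log2 fold of 0.18 (p = 0.766), and mrpl44, whose protein carries a ribonuclease III fold, had 0.18 at 57.0 (p = 0.734), in the authors' deposited table. Another 6 mitochondrial ribosomal proteins carry names outside the mrpl and mrps series and were looked at for comparison: dap3, ptcd3, aurkaip1, chchd1, gadd45gip1 and ict1. Their log2 folds ran from -0.10 (ptcd3) to 0.19 (dap3) with a median of 0.05 in the authors' deposited table. They fell in the same band as the members. None of the 6 passed the threshold, which 0.221% of all genes with a p passed, so a count of 0 says little about them.

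In the small subunit, the highest fold was that of mrps23 (chromosome 15, 30469320 to 30474045), for mS23, at 0.60 in the authors' deposited table, with an implied interval of -0.67 to 1.86 (level 43.6, p = 0.353). The lowest were mrps33 (chromosome 4, 12103418 to 12107190), for mS33, at -0.10 (p = 0.869) and mrps14 (chromosome 2, 35608966 to 35611727), for uS14, at -0.09 (p = 0.873), at level 24.5 and 94.6, in the authors' deposited table. The range of the small subunit genes, -0.10 to 0.60, thus lay inside that of the large subunit genes.

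The 5 genes for small subunit head proteins with a bacterial counterpart (mrps7, mrps9, mrps10, mrps14 and mrps24) had a median of 0.01 and ran from -0.09 to 0.11. mrps24, for uS3 at the entry of the messenger RNA channel, had 0.11 (level 112, p = 0.850) in the authors' deposited table. The 9 such genes of the body and platform (mrps5, mrps6, mrps11, MRPS12, mrps15, mrps16, mrps17, mrps18c and mrps21) had a median of 0.23, with 8 higher and 1, mrps18c, lower. MRPS12, for the decoding protein uS12, had 0.10 (level 141, p = 0.839) in the authors' deposited table. The difference between head and body was not tested. Both groups were set after the values were seen and leave out mitochondria-specific proteins. mrps2, for uS2, had 0.44 at 48.7 (p = 0.464) and mrps28 had 0.09 at 26.4 (p = 0.911) in the authors' deposited table.

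Of the 10 mitochondria-specific small subunit genes, 7 were above 0 and 3 (mrps25, mrps31 and mrps33) below. Among them are mrps22 and mrps34, mutations of which cause mitochondrial disease in humans. Per the authors' deposited table the log2 fold of mrps22 was 0.23 (level 12.4, p = 0.743), and that of mrps34 (level 79.7, p = 0.999) was the closest to 0 of the 76. In the same range, mrps27 had 0.37 (level 13.1) with an implied error of 0.88, and mrps18b had 0.29 (level 56.0), in the authors' deposited table.

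The members lie on 22 of the 25 chromosomes, with none on 18, 23 and 24 and at most 7 on 1 chromosome (19). On chromosome 14, which holds the row named rraga, the members were mrpl11 at 16.4 Mb and mrpl18 at 21.4 Mb from it. Per the authors' deposited table, their folds, 0.31 (p = 0.555) and 0.07 (p = 0.901), lay inside the band of the other members. Some members lie close to each other. mrps11 and mrpl46 point away from each other on chromosome 7 across a gap of 220 bases, and the authors' deposited table gives them 0.39 (p = 0.538) and -0.22 (p = 0.704). mrpl16 and mrpl39 follow each other on the same strand of chromosome 1 across 1871 bases, which the span of cul4a also covers, with 0.22 and 0.30 in the authors' deposited table. The implied intervals of the chromosome 7 pair, -0.85 to 1.62 and -1.37 to 0.92, overlapped over most of their length.

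The spans of 17 members overlap another gene of the table, and whether the counting used strand is not given in the sources used here. In 2 cases the partner had at least 0.5 times the level of the member. mrps22 shares bases with ech1 on the same strand (level 52.9, log2 fold -0.14) and mrpl51 with cyp4t8 on the same strand (level 24.6, log2 fold -0.18), in the authors' deposited table, so the values of mrps22 and mrpl51 are uncertain. In the authors' deposited table mrpl51 itself had -0.04 (level 22.9). Without the 17 members the median of the rest was 0.18.

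Set beside related genes, the median fold of the members lay between those of the cytosolic ribosome and the mitochondrial genome. The 78 cytosolic ribosomal protein genes had a median log2 fold of -0.14 (interquartile range -0.20 to -0.08), with 6 higher and 72 lower. The 13 protein genes of the mitochondrial genome, which the mitochondrial ribosome translates, had a median of 0.47 (0.35 to 0.60), all 13 of them higher. The 92 nuclear genes of oxidative phosphorylation, most of whose proteins form complexes with those 13 products, were higher in 65 cases and lower in 27 (median 0.07, mean -0.15). Of all genes with a fold 50.98% were higher, and of genes of level 10 or more 62.33%. The interquartile range of the members was 0.03 to 0.30, beside a median implied error of 0.59 for a single member. The 3 lists were set after the values were seen, and genes of the same libraries are not replicates. No gene of these 3 lists passed the authors' threshold, where 0.221% of all genes did. At an unadjusted p under 0.05 there were 0 of 78, 0 of 13 and 3 of 92, against 9.66% of all genes, and the 3 were all lower in the mutant, at levels of 8.39 or less. With no value per sample at hand, the differences between the lists could not be tested, and all share the same libraries.

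**Figure D3:**
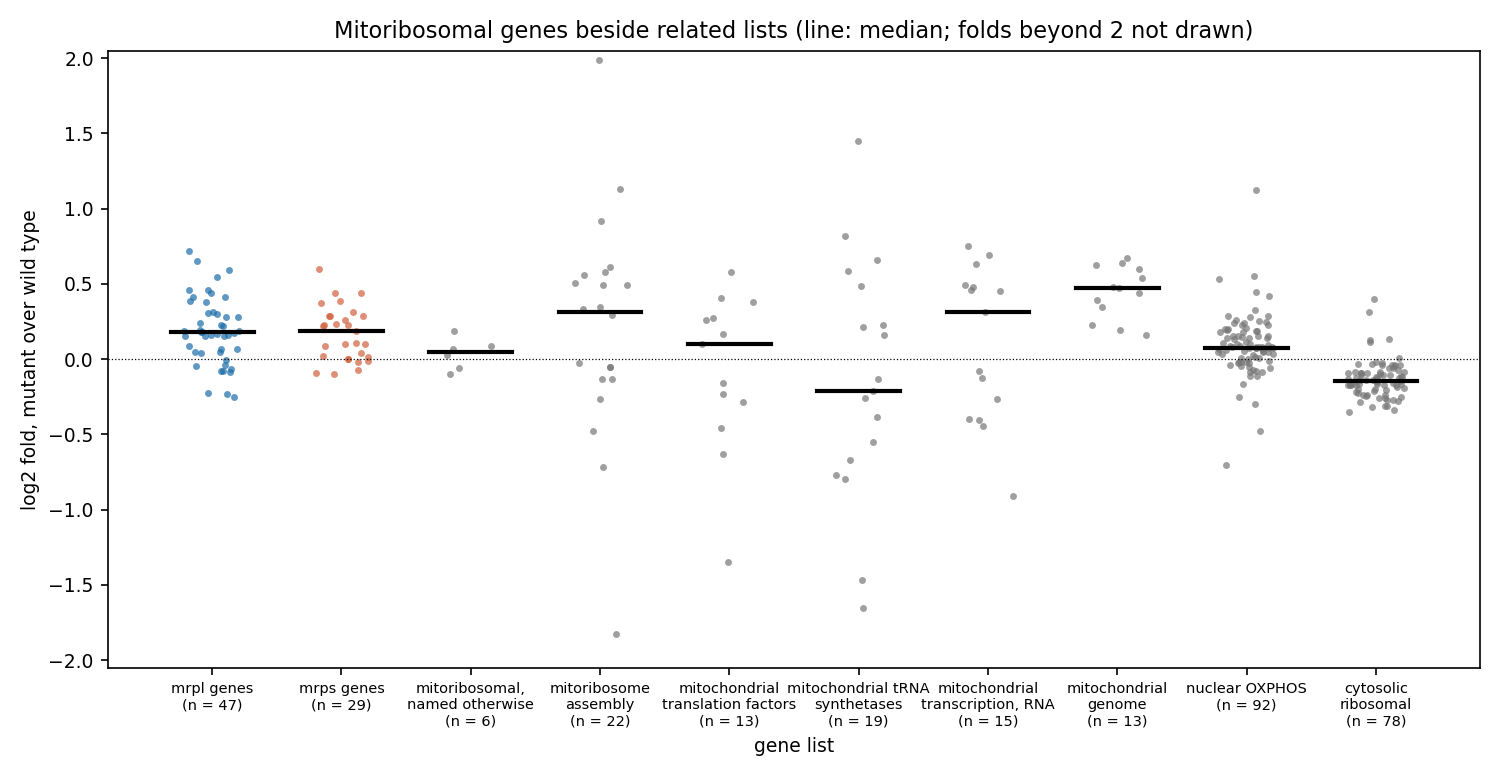
Log2 fold of the mrpl and mrps genes beside lists of related genes; each point is a gene, black lines are medians, and the 5, 1 and 1 genes of nuclear oxidative phosphorylation, transfer RNA synthetases and assembly with an absolute log2 fold over 2 are not drawn. The mrpl and mrps genes centre on 0.18, the cytosolic ribosomal genes on -0.14 and the mitochondrial genome on 0.47.

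The rest of the mitochondrial translation apparatus was more scattered in fold, and many of its genes had a level under 10. Genes for assembly of the mitochondrial ribosome and modification of its RNA (22) split into 12 higher and 10 lower (median 0.31, mean 0.0063, SD 1.23), and 11 had a level under 10. MALSU1, an assembly factor of the large subunit and the gene of highest level there, had 0.34 at 38.6 (p = 0.575) in the authors' deposited table. Translation factors (13) split into 7 higher and 6 lower (median 0.10, mean -0.07). tufm, the elongation factor of highest level, had 0.17 at 98.0 (p = 0.757) in the authors' deposited table. Transfer RNA synthetase and related genes (19) split into 8 higher and 11 lower (median -0.21), and 17 had a level under 10. kars, whose product serves both cytosol and mitochondria, had 0.49 (level 47.4, p = 0.349) in the authors' deposited table.

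Genes for mitochondrial transcription and RNA processing (15) split into 8 higher and 7 lower (median 0.31, mean 0.11). slirp, which stabilises mitochondrial messenger RNAs with lrpprc, had 0.31 (level 230.2, p = 0.533), and tfam, which packages the mitochondrial DNA, had -0.40 at 45.4 (p = 0.494), in the authors' deposited table; tfam was chosen after its value was seen. No gene of these 4 lists (69 genes) passed the authors' threshold, where 0.221% of all genes did. At an unadjusted p under 0.05 there was 1 assembly gene, mrm1, and 1 synthetase gene, fars2, both lower and of low level in the authors' deposited table (levels 1.62 and 1.41); 2 of 69 genes is 2.90%, under the 9.66% of all genes.

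The narrowness of the members' band can be described against genes within the same range of levels. The median level of those genes was 28.4, against 56.5 for the members. Of the 76 members, 71 (93.4%) had an absolute log2 fold under 0.5, compared with 63.5% of the 4588 genes within the same range of levels, which include the members. The SD of the fold over those genes was 0.92, and 23.4% of them had a larger absolute fold than any member. Their median, 0.17, was close to the 0.18 of the members. In the authors' p-values, 65 members (85.5%) were at 0.5 or more, against 56.7% of the genes in that range, and none was under 0.2. The cytosolic ribosomal protein genes were as tight, with an SD of 0.13 and 77 of 78 at a p of 0.5 or more, so a narrow band was not particular to the mitochondrial ribosome.

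**Figure D4:**
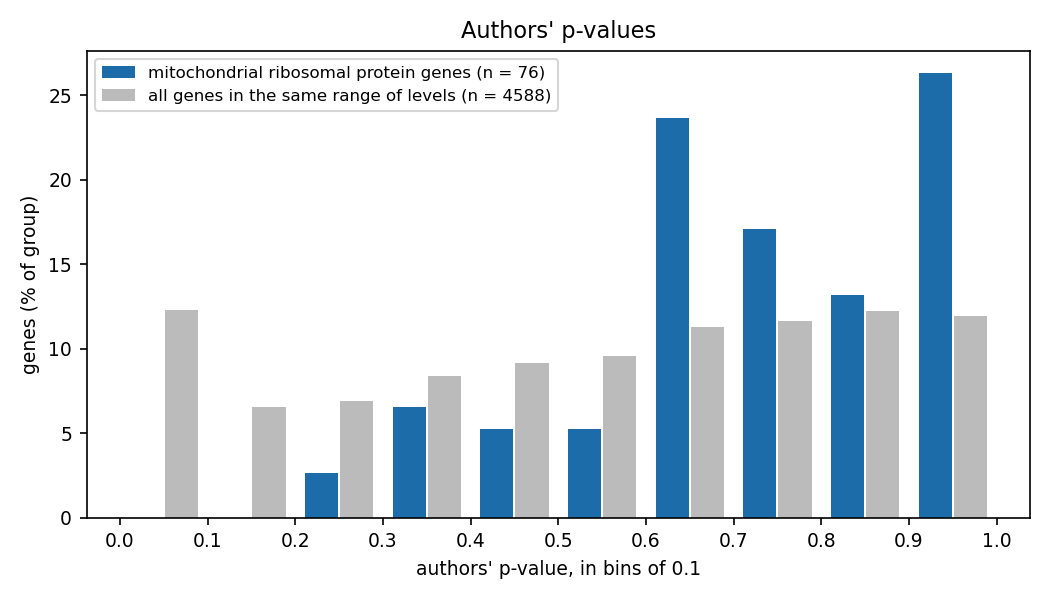
Percentage of genes in each bin of 0.1 of the authors' p-value, for the 76 mitochondrial ribosomal protein genes (blue) and the 4588 genes within the same range of levels, members included (grey). No member falls under 0.2, where 18.9% of the genes in that range, members included, do, and 26.3% of members lie at 0.9 or more.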

How the data were processed

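RNA from sorted Cldnk:GFP cells of wild-type and rraga mutant zebrafish larvae was compared, with 1 record per genotype that merges 2 biological replicates per the labels. The submitters' processing notes name the build GRCz11. Which aligner, counting tool, normalization and test the authors used is not given in the sources used here. The deposited table holds, per the file headers, the maximum group mean (an expression signal in an unnamed unit), a log2 fold of mutant over control, the same fold on a linear scale with its sign, and p-values with FDR and Bonferroni adjustment by the authors. Genes of level 0 (8569) have no fold or p. The table holds no counts, so the depth is unknown and no count model, replicate fit or interval from depth could be made.

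Members were matched on the name in either case. A gene was called where the authors' FDR p was under 0.05. Implied standard errors assume a normal test. Lists are described by counts and medians with no test. Full values were given for members with p under 0.05 (none), the 5 of highest level per name series, the 5 highest and 5 lowest folds, members on chromosome 14, and mrps30 and mrps18a. The members and lists were chosen with earlier results of these data known; the 3 lists matched by name pattern (cytosolic ribosome, mitochondrial genome, oxidative phosphorylation) and the structural groups were set after the values were seen. Of the members, 74 identifiers were in the reference name table, 72 under the same symbol. The Benjamini-Hochberg step was tested on simulated data. Python 3.11.15, pandas 2.3.3, scipy 1.17.1 and matplotlib 3.10.9 were used.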

Additional observations from a re-analysis of the deposited data

How the results depend on the processing

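The count of 0 mitochondrial ribosomal genes past the threshold was also 0 at the authors' FDR p under 0.01 and under 0.1, by their Bonferroni p, and with the Benjamini-Hochberg adjustment over genes of level 1 or more or of level 10 or more. Centring the folds on the median of all genes of level 10 or more moved the median of the members to 0.026, that of the large subunit genes to 0.024 and that of the small subunit genes to 0.031, and the share of genes with a higher value from 78.95% to 59.21%, because the subtracted median was 0.15. The difference between large and small subunit medians ran from -0.06 to 0.06 over 9 alternatives and changed sign with the mean, with bacterial counterparts only, and without mrps36. Lower-case names only, leaving out mrps36 or overlapping genes, and adding proteins named otherwise were alternatives chosen after seeing the data; each left the median of the members between 0.17 and 0.18. All members were of level 10 or more, so the level filters changed nothing. No paired analysis was possible because the table holds no values per replicate, and for the same reason no replicate could be left out and no other normalization tried. Depth is unknown, and the implied errors limit what a single gene can show.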
